A study of Caenorhabditis elegans with 82 samples.

Results

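Gene expression on day 3 of adulthood (Ad3) was compared between whole worms of Caenorhabditis elegans raised on Ochrobactrum MYb71 and worms raised on Escherichia coli OP50. All worms were hermaphrodites of N2, the laboratory wild type, and carried no transgene or mutation. The labels give mNGM as the medium and 20 °C as the temperature for both groups, and the libraries were chosen by their labels alone, that is treatment MYb71 (4 libraries) or OP50 (3 libraries) with the time point of 3-day adults. These are 7 of 82 libraries in the series. The other libraries hold the same strain at other larval and adult stages, on a second isolate labelled MYb65, or on a mixture of both isolates. Worms had lived on their bacterium for generations before the experiment, each library pools worms synchronized by bleaching, and the methods describe 3 replicates from separate runs of the exposure experiment. The labels hold 4 MYb71 libraries and do not say which library belongs to which run, so it is not known whether these are 4 separate runs. Adults were picked by hand away from their offspring, and embryos inside the mothers were not removed.

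MYb71 is an isolate from the natural gut community of C. elegans that settles in the intestine, whereas OP50 is the standard laboratory food and is mostly broken down by the pharynx and digestive enzymes. The worm intestine digests bacteria with lysozymes, saposin-like proteins (caenopores, which open bacterial membranes), nucleases and lysosomal proteases, and many of the same proteins count as immune effectors. Bacteria also feed the worm vitamin B12. Where B12 is scarce, C. elegans breaks down propionate by a separate set of enzymes, the propionate shunt, whose first enzyme, the acyl-CoA dehydrogenase ACDH-1, is a well known reporter of low B12.

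Sequencing depth was high in both groups. Total counts per library ranged from 14536033 to 26623583 on MYb71 and from 21091675 to 54792826 on OP50, and all 7 libraries resembled other libraries of their own stage more than those of any other stage. Summed intestinal markers (7 genes, among them elt-2, elt-7 and act-5, with a median log2 fold change of 0.26, and -0.02 without OP50 replicate 3) were 306 to 504 CPM on MYb71, against 327, 502 and 154 CPM in OP50 replicates 1, 2 and 3. CPM is the read count scaled to the size of the library. Summed germline markers (10 genes) were 2537 to 2878 CPM on MYb71, against 3080, 2568 and 2986 CPM on OP50. The 6 vitellogenins, the yolk proteins made by the adult intestine, summed to 34077 to 50177 CPM on MYb71, against 52993, 49772 and 20174 CPM on OP50. OP50 replicate 3 thus had the lowest intestinal and yolk signal of the 7 libraries, and it also stood apart in the propionate shunt, so results that rest on it are given with and without it. Sperm markers summed to 3.48 to 89.6 CPM on MYb71 and to 4.63, 11.9 and 3.51 CPM on OP50. In bulk RNA of whole worms, fewer cells of a type and less RNA per cell cannot be told apart.

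Of 14323 genes tested, 20 differed between the bacteria at an adjusted p under 0.05. Expression of 15 genes was higher on MYb71 (0.105% of the genes tested) and that of 5 genes was lower (0.0349%). The median log2 fold change over all genes was -0.00. Genes that rose on MYb71 included asp-8, an aspartic protease, C50B6.7, an alpha-amylase, lys-5, a lysozyme, spp-2, a saposin-like protein, nuc-1, a deoxyribonuclease, and aagr-1, an acid alpha-glucosidase. No member of a list fixed for this comparison was called lower with all libraries. Without the test, every MYb71 library lay above every OP50 library for 734 genes (5.12%) and below every OP50 library for 359 genes (2.51%), and an unadjusted p under 0.05 was reached by 1049 genes. The log2 fold change was positive in 7058 genes and negative in 7265. The number of genes called depended strongly on single libraries. It was 1 without OP50 replicate 1, 1 without OP50 replicate 2, 74 without OP50 replicate 3, 13 without MYb71 replicate 1, 6 without MYb71 replicate 2, 5 without MYb71 replicate 3 and 3 without MYb71 replicate 4, and it was 146 with DESeq2 in place of edgeR. All 20 genes were among those called by DESeq2. Counts of list members called by DESeq2 below stand beside those 146 genes. Counts called without OP50 replicate 3 stand beside 30 genes called higher and 44 called lower of 14702 tested in that fit. asp-8 kept its call in 14 of 14 alternatives.

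**Figure D1:**
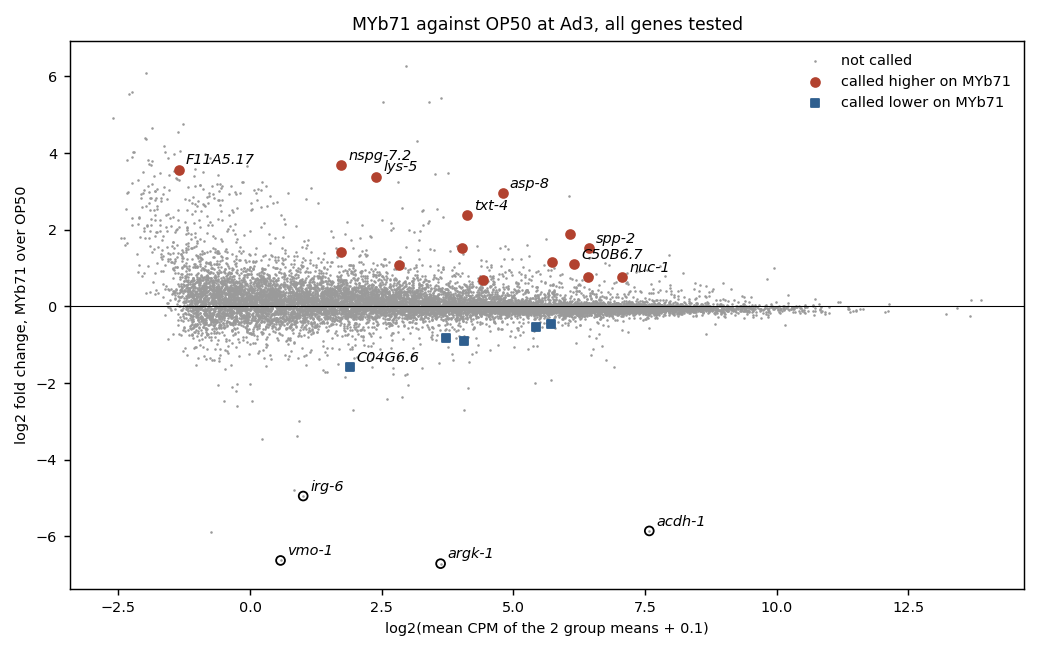
Log2 fold change of MYb71 over OP50 at Ad3 (vertical axis) against the mean level of the groups (log2 CPM + 0.1, horizontal axis) for 14323 genes, with 15 genes called higher in red, 5 called lower in blue squares and 4 large changes that were not called as open circles. The called genes span log2 fold changes from -1.59 to 3.68, and the open circles (acdh-1, irg-6, argk-1 and vmo-1) lie lower than any called gene.

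The smallest p of all genes tested was that of asp-8, which codes for an aspartic protease (genome build WBcel235, as for all positions here, chromosome V, 3024549 to 3027931). Its level was 45.9, 48.0, 51.7 and 50.3 CPM in the MYb71 libraries, against 4.38, 7.19 and 7.45 CPM in the OP50 libraries. The lowest MYb71 library was above the highest OP50 library by a wide margin, and the log2 fold change was 2.96 ± 0.25 (SE, adjusted p = 0.00198). The other 12 aspartic proteases tested were not called, and the median of the 13 was 0.39 on the log2 scale and 0.06 without OP50 replicate 3. In that fit 2 further members, asp-13 and asp-14, were called in the direction opposite to asp-8. asp-14 had 48.4, 29.5, 66.5 and 65.6 CPM on MYb71, against 129, 211 and 38.96 CPM on OP50 (adjusted p = 0.573 with all libraries and 0.0479 without OP50 replicate 3). asp-13, which is outside the rule for named genes and was added after its values were seen, had 66.4, 62.7, 88.02 and 65.6 CPM on MYb71, against 153, 127 and 34.9 CPM on OP50 (adjusted p = 0.806 and 0.0205). OP50 replicate 3 lay among or below the MYb71 libraries in both.

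Both genes called among 10 of carbohydrate digestion also rose. The list as a whole had 7 positive and 3 negative members and a median log2 fold change of 0.25, and 0.08 without OP50 replicate 3. Its summed level overlapped, with 951 to 1101 CPM on MYb71, against 961, 930 and 742 CPM on OP50. C50B6.7, which codes for an enzyme of the alpha-amylase family that cuts starch and glycogen (chromosome V, 13322365 to 13324983), reached 99.1, 98.6, 103 and 87.6 CPM on MYb71, against 45.0, 40.8 and 49.9 CPM on OP50. The groups did not overlap, and the log2 fold change was 1.10 ± 0.12 (adjusted p = 0.0115). The gene overlaps srh-15 on the other strand, and the library kit does not mark strand. The lysosomal alpha-glucosidase gene aagr-1 (chromosome IV, 8366521 to 8375371) had 77.7, 69.8, 73.6 and 74.2 CPM on MYb71, against 37.3, 37.7 and 23.4 CPM on OP50. Its log2 fold change was 1.17 ± 0.19 (adjusted p = 0.0488), and 0.98 ± 0.16 without OP50 replicate 3, its lowest library (adjusted p = 0.0268). The trehalase gene tre-3 had 28.02, 19.5, 27.8 and 23.9 CPM on MYb71, against 19.1, 18.6 and 14.2 CPM on OP50, with no overlap but no call (adjusted p = 0.513).

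The DNase II gene nuc-1, which degrades the DNA of dying cells and of ingested bacteria (chromosome X, 9539905 to 9542329), was raised as well. It measured 160, 154, 203 and 158 CPM on MYb71, against 98.8, 93.3 and 106 CPM on OP50. MYb71 replicate 3 was the highest, the groups did not overlap, and the log2 fold change was 0.77 ± 0.10 (adjusted p = 0.0192).

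Among 13 lysozyme genes tested, 1 was called. lys-5 (chromosome IV, 11624252 to 11625582), of the protist-type lysozymes that cleave bacterial cell walls, had 8.41, 7.38, 13.9 and 8.18 CPM on MYb71, against 0.941, 1.20 and 0.532 CPM on OP50. Each MYb71 library was thus several times above each OP50 library, with a log2 fold change of 3.38 ± 0.39 (adjusted p = 0.0125). The invertebrate-type lysozyme ilys-3 went the other way without a call. It had 1.99, 3.25, 2.80 and 1.30 CPM on MYb71, against 16.01, 6.98 and 13.5 CPM on OP50 (log2 fold change -2.37 ± 0.61, adjusted p = 0.288). By DESeq2 its adjusted p was 0.00945.

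Saposin-like proteins were led by spp-2 (chromosome X, 7315995 to 7316818), a member of the family of pore-forming caenopores. It had 101, 139, 148 and 125 CPM on MYb71, against 44.6, 46.7 and 42.8 CPM on OP50, and its log2 fold change was 1.52 ± 0.18 (adjusted p = 0.0133). The OP50 libraries were close to each other and far below every MYb71 library. Of 24 family members tested, 1 was called by edgeR (5 by DESeq2), 21 had a positive log2 fold change, and the median was 0.57. That median was 0.28 without MYb71 replicate 3. Over all genes tested 7058 of 14323 were positive. spp-5, a caenopore with known killing activity against bacteria, had 281, 339, 530 and 395 CPM on MYb71, against 203, 222 and 213 CPM on OP50 (adjusted p = 0.167). spp-3 had 50.2, 50.3, 94.6 and 64.6 CPM on MYb71, against 30.7, 37.99 and 24.1 CPM on OP50 (adjusted p = 0.380). In both genes MYb71 replicate 3 was the highest library and the groups did not overlap. In spp-8 the groups did not overlap either, with 130 to 160 CPM on MYb71 and 72.8 to 121 CPM on OP50 (adjusted p = 0.267), and without OP50 replicate 3 the adjusted p was 0.0258.

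**Figure D2:**
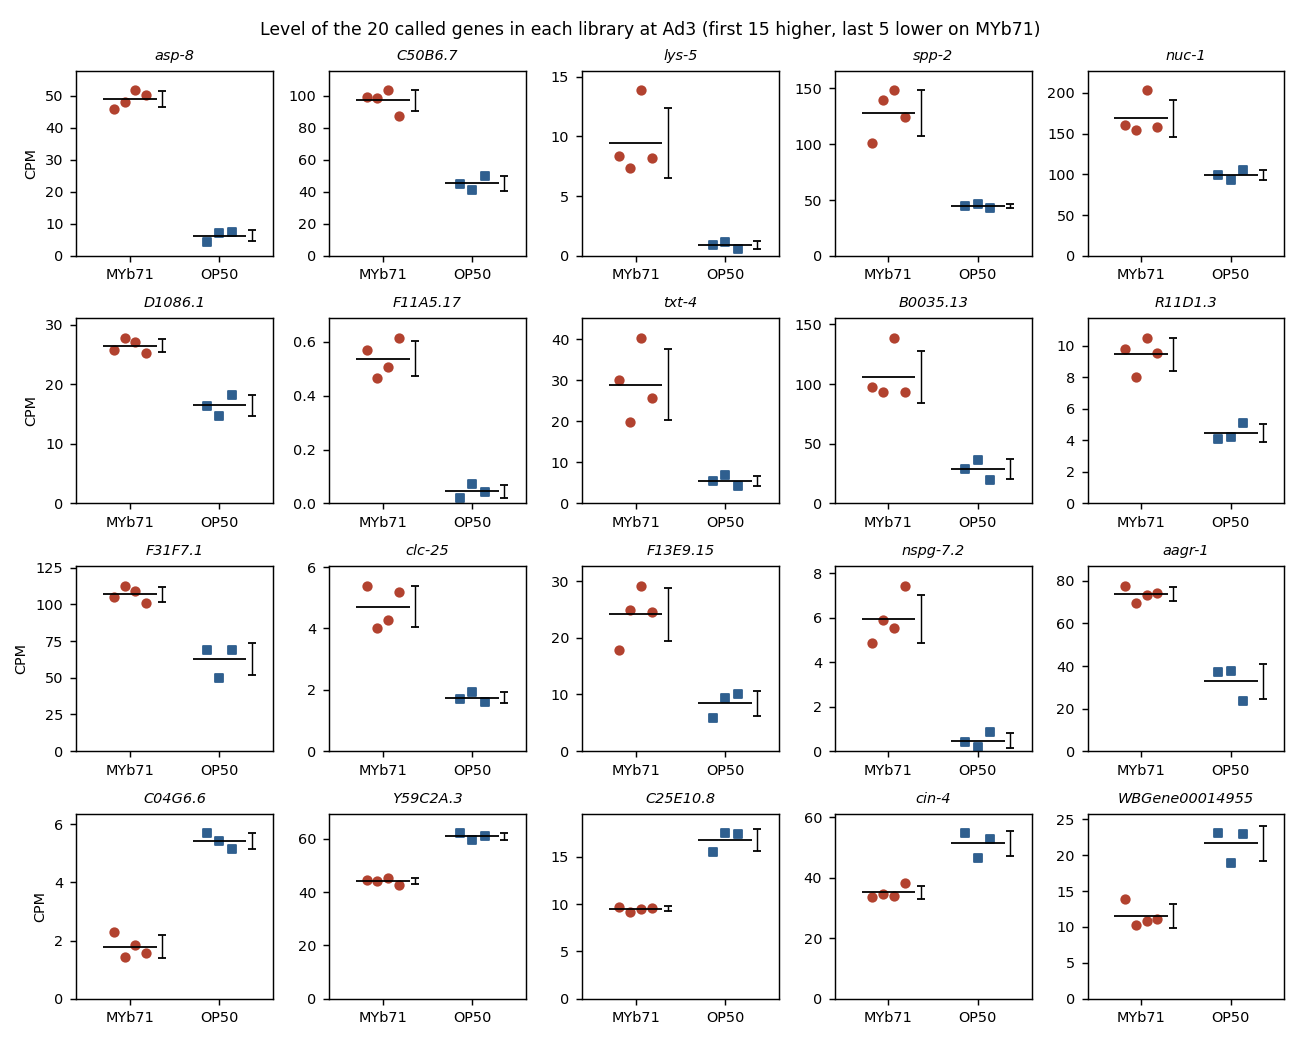
Normalised counts (CPM, vertical axes, from 0) of the 20 called genes in each of 4 MYb71 libraries (red circles) and 3 OP50 libraries (blue squares), with the mean as a line and the SD as a bar beside it. In all 20 panels the groups do not overlap, and asp-8 lies between 45.9 and 51.7 CPM on MYb71 and between 4.38 and 7.45 CPM on OP50.

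The other genes that rose are less well known. txt-4 (chromosome IV, 1510564 to 1515457), which overlaps clec-172 on the other strand, had 30.2, 19.9, 40.3 and 25.7 CPM on MYb71, against 5.47, 6.84 and 4.35 CPM on OP50 (log2 fold change 2.38 ± 0.33, adjusted p = 0.0228). nspg-7.2 (chromosome III, 3256689 to 3258406), of a nematode-specific peptide family, had 4.86, 5.87, 5.55 and 7.43 CPM on MYb71, against 0.403, 0.176 and 0.843 CPM on OP50 (log2 fold change 3.68 ± 0.57, adjusted p = 0.0396). Both were thus several times higher in every MYb71 library than in any OP50 library. B0035.13 (chromosome IV, 11304793 to 11306720) averaged 106 ± 21.9 CPM on MYb71 and 28.6 ± 8.33 CPM on OP50 (SD, n = 4 and 3; edgeR, log2 fold change 1.88 ± 0.26, adjusted p = 0.0295). F13E9.15 (chromosome IV, 10889538 to 10889870) averaged 24.1 ± 4.66 CPM on MYb71 and 8.40 ± 2.22 CPM on OP50 (log2 fold change 1.53 ± 0.24, adjusted p = 0.0396). No role is given here for either. clc-25 (chromosome III, 1023221 to 1026361), a claudin-like membrane protein gene that overlaps Y34F4.7 on the same strand, had 5.39, 4.02, 4.26 and 5.18 CPM on MYb71, against 1.71, 1.94 and 1.597 CPM on OP50 (log2 fold change 1.43 ± 0.22, adjusted p = 0.0389). It was the single called gene that lost its call without OP50 replicate 3 (adjusted p = 0.0539).

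R11D1.3 (chromosome V, 12711293 to 12712099) averaged 9.46 ± 1.05 CPM on MYb71 and 4.47 ± 0.55 CPM on OP50 (log2 fold change 1.08 ± 0.17). F31F7.1 (chromosome V, 6276439 to 6278160) averaged 107 ± 5.07 CPM on MYb71 and 62.6 ± 10.99 CPM on OP50 (log2 fold change 0.77 ± 0.12). D1086.1 (chromosome V, 14098858 to 14100691) averaged 26.5 ± 1.13 CPM on MYb71 and 16.5 ± 1.79 CPM on OP50 (log2 fold change 0.69 ± 0.09). The differences were small in F31F7.1 and D1086.1. In R11D1.3, F31F7.1 and D1086.1 the spread among libraries was small beside the difference, and the adjusted p values were 0.0362, 0.0389 and 0.0206. F11A5.17 (chromosome V, 16202030 to 16202865) was rare, with 16, 12, 9 and 9 counts in the MYb71 libraries and 1, 2 and 1 counts in the OP50 libraries. Its call (adjusted p = 0.0215) therefore rests on few reads, and the size of its fitted fold change depends on how counts near 0 are treated.

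In the opposite direction, C04G6.6 (chromosome II, 5099438 to 5099749) had 2.31, 1.43, 1.85 and 1.57 CPM on MYb71, against 5.68, 5.43 and 5.15 CPM on OP50. The OP50 libraries agreed closely and the log2 fold change was -1.59 ± 0.21 (adjusted p = 0.0192). C25E10.8 (chromosome V, 9053262 to 9054069) had 9.75, 9.16, 9.54 and 9.61 CPM on MYb71, against 15.5, 17.5 and 17.4 CPM on OP50, and fell by 0.82 on the log2 scale (SE 0.11, adjusted p = 0.0206). cin-4 (chromosome II, 7038292 to 7041685), a topoisomerase II-like gene with a close relative in the genome, top-2, had 33.6, 34.5, 34.1 and 38.3 CPM on MYb71, against 54.6, 46.7 and 52.8 CPM on OP50 (log2 fold change -0.55 ± 0.08, adjusted p = 0.0206). How reads shared between such relatives were counted is not known here, so the level of cin-4 alone is uncertain.

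Y59C2A.3 (chromosome II, 2215480 to 2219921) had 44.8, 44.1, 45.4 and 42.6 CPM on MYb71, against 62.1, 59.6 and 61.2 CPM on OP50. This was the smallest change called (log2 fold change -0.46 ± 0.06, adjusted p = 0.0192), and the libraries of each group were nearly equal. WBGene00014955, which has no symbol and is annotated as a pseudogene (chromosome V, 16929167 to 16930063), had 13.9, 10.3, 10.8 and 11.04 CPM on MYb71, against 23.0, 18.9 and 23.0 CPM on OP50 (log2 fold change -0.91 ± 0.13, adjusted p = 0.0285). Its neighbour on the same strand, the pseudogene WBGene00014954 (16928328 to 16928999), showed 7.70, 4.64, 4.66 and 4.50 CPM on MYb71, against 12.2, 9.66 and 12.4 CPM on OP50 (adjusted p = 0.0752).

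Lipases had mostly positive log2 fold changes. Of 7 lipl genes (lysosomal lipases that release fatty acids from stored fat) edgeR called 0 and DESeq2 called 3, while 4 passed an unadjusted p of 0.05 and 4 had no overlap between the groups. Their median log2 fold change was 1.06, against -0.00 for all genes tested. Over all 14323 genes, 734 lay above OP50 without overlap, 359 lay below, and 1049 passed an unadjusted p of 0.05. lipl-1 had 99.7, 111, 145 and 131 CPM on MYb71, against 34.5, 49.0 and 68.9 CPM on OP50 (adjusted p = 0.0819). lipl-2 had 38.1, 47.1, 31.4 and 42.2 CPM on MYb71, against 10.8, 13.3 and 26.2 CPM on OP50 (adjusted p = 0.180). OP50 replicate 3 was the highest OP50 library in both, and without it both were called higher (adjusted p = 0.0103 and 0.00505) and the list's median was 1.47. lipl-5 had 201, 216, 237 and 181 CPM on MYb71, against 33.7, 93.6 and 95.8 CPM on OP50 (adjusted p = 0.341, and 0.312 without OP50 replicate 3).

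C-type lectins, a large family of carbohydrate-binding proteins with many members induced by bacteria, had 102 genes tested. edgeR called 0 of them (23 at an unadjusted p under 0.05), 7 were higher and 1 lower by DESeq2, and 21 lay without overlap above OP50 and 2 below. Their median log2 fold change was 0.29. Of all 14323 genes tested 734 lay without overlap above OP50 and 359 below, and 1049 had an unadjusted p under 0.05. clec-60 had 16.6, 26.5, 22.2 and 13.4 CPM on MYb71, against 1.59, 2.78 and 5.95 CPM on OP50 (adjusted p = 0.103). clec-166 had 23.8, 16.3, 31.6 and 19.4 CPM on MYb71, against 10.7, 7.44 and 5.50 CPM on OP50 (adjusted p = 0.115). In both, every MYb71 library was above every OP50 library. For clec-60 OP50 replicate 3 was the nearest to MYb71, and without it the gene was called higher (adjusted p = 0.0208), while clec-166 was not (adjusted p = 0.184). In that fit 2 lectin genes were called higher, clec-55 being the other, and 2 were called lower, clec-3 (log2 fold change -3.87, adjusted p = 0.00310) and clec-48 (-0.61, adjusted p = 0.0438), and clec-55, clec-3 and clec-48 are named here after their values were seen. clec-47 had 14.1, 20.7, 16.3 and 16.7 CPM on MYb71, against 117, 76.7 and 8.34 CPM on OP50, with OP50 replicate 3 below all MYb71 libraries (adjusted p = 0.562, and 0.0539 without that library). clec-63, clec-65 and clec-218 overlapped between the groups (adjusted p from 0.781 to 0.870).

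**Figure D3:**
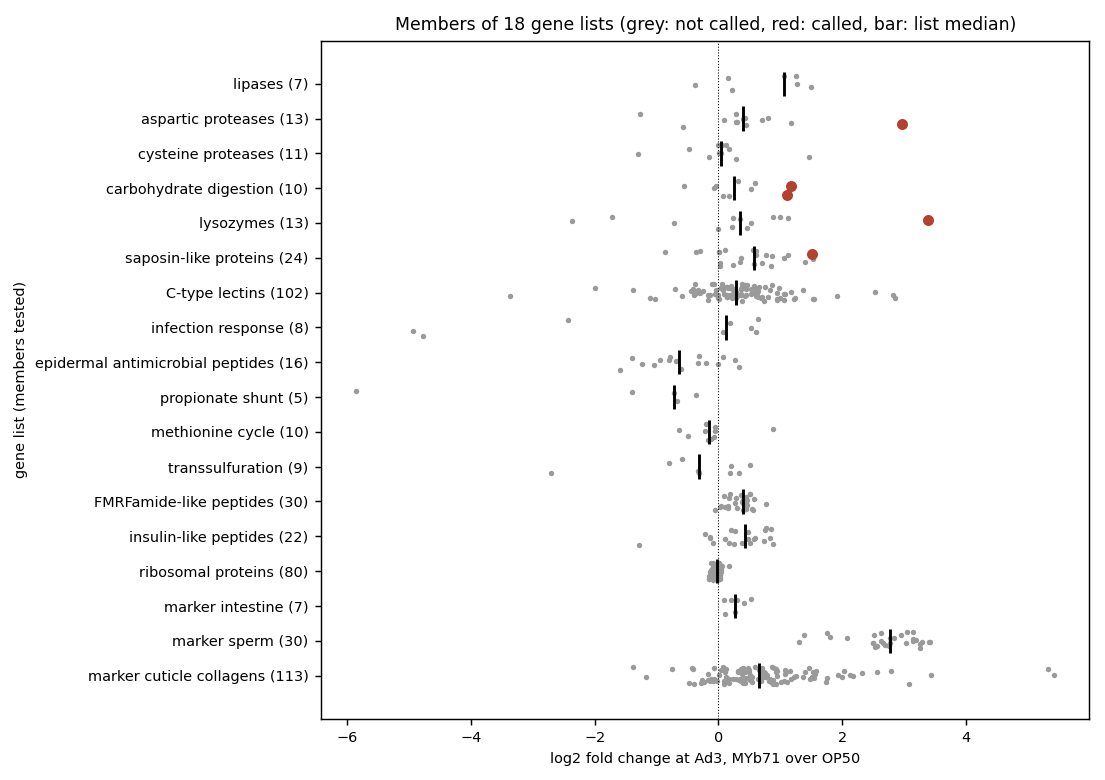
Log2 fold changes of MYb71 over OP50 at Ad3 (horizontal axis) of the tested members of 18 gene lists (rows), with members not called in grey, called members in red and the list median as a bar. The medians run from -0.72 for the propionate shunt to 2.77 for the sperm markers, and 5 members are called, asp-8, C50B6.7, aagr-1, lys-5 and spp-2.

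Of 8 infection response genes (irg genes) edgeR called 0 with all libraries, 4 had an unadjusted p under 0.05 and 3 were called lower by DESeq2. Among all 14323 genes 1049 had such an unadjusted p and 359 lay without overlap below OP50. irg-6 had 1, 6, 2 and 1 counts in the MYb71 libraries and 58, 243 and 33 counts in the OP50 libraries (adjusted p = 0.0752). irg-5 had 3, 4, 2 and 1 counts on MYb71 and 192, 150 and 18 counts on OP50 (adjusted p = 0.0861). irg-4, of the CUB domain genes induced by Pseudomonas, had 2.80, 1.55, 1.23 and 1.84 CPM on MYb71, against 7.87, 18.3 and 4.08 CPM on OP50 (log2 fold change -2.43 ± 0.45, adjusted p = 0.0841). No MYb71 library overlapped with OP50 in these 3 genes, the OP50 libraries differed several times among themselves, and without OP50 replicate 3 all 3 were called lower (adjusted p = 0.0258, 0.0205 and 0.00990). The other 5 members had positive log2 fold changes and overlapping groups, so the list's median was 0.12, and -0.24 without OP50 replicate 3.

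Epidermal antimicrobial peptides (cnc and nlp genes of the skin) had a median log2 fold change of -0.64 over 16 members tested. By edgeR 0 were called (5 at an unadjusted p under 0.05, 1 by DESeq2), and 6 lay without overlap below OP50. The counts over all 14323 genes were 1049 at an unadjusted p under 0.05 and 359 without overlap below OP50. cnc-7 had 2.66, 3.52, 3.59 and 3.07 CPM on MYb71, against 10.7, 12.2 and 6.12 CPM on OP50 (adjusted p = 0.0568, and 0.00945 without OP50 replicate 3). cnc-4 had 19.3, 37.98, 21.5 and 29.3 CPM on MYb71, against 58.6, 53.8 and 54.2 CPM on OP50 (adjusted p = 0.606). For cnc-4 OP50 replicate 3 lay with the other OP50 libraries.

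Peptide hormone genes had mostly positive log2 fold changes at low levels. Of 30 FMRFamide-like neuropeptide genes 29 had a positive log2 fold change, 12 lay without overlap above OP50 and 0 were called (13 at an unadjusted p under 0.05, 0 by DESeq2), with a median of 0.39. Of 22 insulin-like peptide genes 17 were positive, 6 lay without overlap above OP50 and 0 were called (3 at an unadjusted p under 0.05, 0 by DESeq2), with a median of 0.43, and 0.27 without OP50 replicate 3. Among all 14323 genes 7058 were positive, 734 lay without overlap above OP50 and 1049 had an unadjusted p under 0.05. flp-21 had 2.55, 3.36, 3.31 and 2.86 CPM on MYb71, against 1.52, 2.04 and 1.77 CPM on OP50 (adjusted p = 0.362). ins-3 had 1.35, 1.55, 1.57 and 1.43 CPM on MYb71, against 0.710, 0.881 and 0.887 CPM on OP50 (adjusted p = 0.347). Of the neuronal markers 8 of 9 were positive too, with a median of 0.25 (0.16 without OP50 replicate 3) and sums of 398 to 460 CPM on MYb71 and of 380, 417 and 371 CPM on OP50. Their part in the peptide values was not tested.

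Genes of detoxification were not called as groups. Of 62 cytochrome P450, 61 UDP-glucuronosyltransferase and 36 glutathione S-transferase genes 0 were called by edgeR (6, 6 and 3 at an unadjusted p under 0.05, and 2, 0 and 0 by DESeq2), with medians of 0.16, 0.22 and 0.21, and of 0.05, 0.02 and 0.02 without OP50 replicate 3. Over all genes 1049 of 14323 had an unadjusted p under 0.05 by edgeR. fmo-2, a flavin-containing monooxygenase linked to diet and longevity, had 134, 215, 49.6 and 68.9 CPM on MYb71, against 1.52, 6.66 and 40.9 CPM on OP50. The groups did not overlap but each was spread widely, and the gene was not called (log2 fold change 2.87 ± 1.18, adjusted p = 0.645). Without OP50 replicate 3, its highest OP50 library, the log2 fold change was 4.90 ± 1.29 (adjusted p = 0.289). Ribosomal protein genes, 80 in number, had a median of -0.02, and the 6 GATA factors one of 0.03, with elt-2, the GATA factor that directs intestinal genes, at 5.89, 7.42, 7.91 and 5.73 CPM on MYb71 and at 6.89, 7.93 and 3.99 CPM on OP50 (adjusted p = 0.979). By edgeR 0 genes of either list were called (0 at an unadjusted p under 0.05, 0 by DESeq2).

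Sperm markers had the highest median of all lists, 2.77, with 30 of 30 members positive and 0 called by edgeR (2 at an unadjusted p under 0.05, 0 by DESeq2). By comparison, 7058 of all 14323 genes were positive. The levels of the sperm markers were low and uneven. msp-152, a major sperm protein gene, had 4.11, 0.193, 2.41 and 0.204 CPM on MYb71, against 0.288, 0.282 and 0.177 CPM on OP50, so MYb71 replicates 1 and 3 were high and the other MYb71 libraries lay with OP50. The OP50 levels of msp-152, msp-64 and gsp-4 were too low for the filter on low counts. These genes passed it through MYb71 and MYb65 libraries. The sign of such a gene is partly set by the filter, so the share of positive genes among all genes is no fair measure for it. Cuticle collagens, with 113 tested, had a median of 0.66, 0 calls (1 at an unadjusted p under 0.05, 0 by DESeq2) and summed levels of 4242 to 8808 CPM on MYb71, against 6091, 8654 and 1877 CPM on OP50. col-138 reached 93.9 CPM in MYb71 replicate 1 but 0.341 to 1.40 CPM in the other MYb71 libraries.

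In the propionate shunt the OP50 libraries differed from each other. acdh-1 had 6.53, 3.09, 10.4 and 6.20 CPM on MYb71, against 587, 528 and 12.96 CPM on OP50. All MYb71 libraries were lower than any OP50 library, but OP50 replicate 3 lay next to MYb71 and not next to the other OP50 libraries, and the gene was not called (log2 fold change -5.86 ± 1.02, adjusted p = 0.0830). hphd-1, the hydroxyacid-oxoacid transhydrogenase, had 61.0, 47.3, 69.5 and 58.8 CPM on MYb71, against 227, 223 and 18.7 CPM on OP50. alh-8, the semialdehyde dehydrogenase of the last step, had 314, 301, 303 and 305 CPM on MYb71, against 585, 630 and 293 CPM on OP50. hach-1, a hydrolase, had 110, 99.7, 122 and 113 CPM on MYb71, against 234, 206 and 90.8 CPM on OP50. ech-6, a hydratase, had 145, 135, 181 and 160 CPM on MYb71, against 239, 232 and 126 CPM on OP50. In these 4 genes OP50 replicate 3 was the lowest of the 7 libraries. With all libraries 0 of the 5 shunt genes were called by edgeR (4 at an unadjusted p under 0.05, 2 by DESeq2). Such an unadjusted p was reached by 1049 of all 14323 genes. Without OP50 replicate 3 all 5 were called lower, as were 44 of all 14702 genes tested in that fit. That library was singled out partly by its shunt values, so these 5 calls follow in part from the choice and are not separate evidence.

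For acdh-1 the OP50 libraries were split in the same way at the neighbouring adult stages. On the scale of the 21 adult libraries, acdh-1 had 0 to 7.63 CPM on MYb71 at day 1 (Ad1), against 1160, 1255 and 11.5 CPM in OP50 replicates 1, 2 and 3. At day 7 (Ad7) it had 1.503 to 3.06 CPM on MYb71, against 269, 157 and 18.7 CPM in OP50 replicates 1, 2 and 3. The library labelled OP50 replicate 3 was thus closer to MYb71 in acdh-1 at all 3 adult stages. The labels name no food lot or run for it, and the cause was not tested. asp-8, lys-5 and spp-2 did not share this split, since OP50 replicate 3 had 7.45, 0.532 and 42.8 CPM, next to the other OP50 libraries. These genes were called with OP50 replicate 3 in the group, a choice that favours genes without the split.

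**Figure D4:**
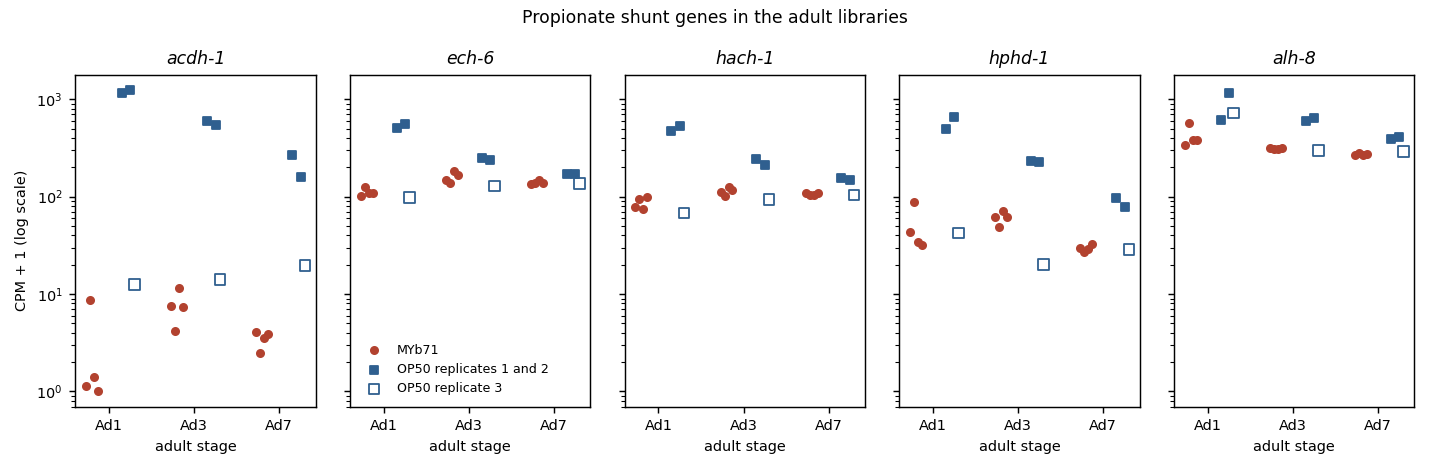
Normalised counts (CPM plus 1, log scale) of the 5 propionate shunt genes at Ad1, Ad3 and Ad7, with MYb71 libraries as red circles, OP50 replicates 1 and 2 as filled blue squares and OP50 replicate 3 as an open square. The acdh-1 values of OP50 replicate 3 are 11.5, 13.2 and 18.7 CPM at Ad1, Ad3 and Ad7, against 157 to 1255 CPM in OP50 replicates 1 and 2.

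Without OP50 replicate 3, 14702 genes were tested and 30 were called higher (0.204%) and 44 lower (0.299%). Of the 20 genes called with all libraries 19 were among them. The other 55 were called in this fit alone. Among those called lower, OP50 replicate 3 lay at or past the level of the MYb71 libraries in 24, between the groups in 10 and with the other OP50 libraries in 1, and the remaining genes called lower had not passed the filter on low counts with all libraries. Among those called higher, it lay between the groups in 15 and with the other OP50 libraries in 1. These calls describe OP50 replicates 1 and 2.

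Single genes of sulfur amino acid metabolism and of the B12 response were called lower in that fit alone, namely 1 of 10 in the methionine cycle list, 1 of 9 in transsulfuration and 1 of 3 among the B12-response receptors. In the same fit 44 of all 14702 genes tested were called lower. ahcy-1, the S-adenosylhomocysteine hydrolase of the methionine cycle, had 925, 1023, 926 and 913 CPM on MYb71, against 1654, 1466 and 866 CPM on OP50 (adjusted p = 0.567, and 0.0205 without OP50 replicate 3). cth-1, a cystathionine gamma-lyase of transsulfuration, had 4.15, 5.91, 4.54 and 2.86 CPM on MYb71, against 17.8, 62.3 and 6.48 CPM on OP50 (adjusted p = 0.176 and 0.0133). nhr-114, a nuclear receptor that responds to the lack of B12 and methionine, had 6.53, 6.57, 8.02 and 4.09 CPM on MYb71, against 24.99, 22.8 and 4.75 CPM on OP50 (adjusted p = 0.524 and 0.0364). cbs-1, a cystathionine beta-synthase of transsulfuration, lay the other way without overlap or call, with 34.02, 30.2, 38.6 and 28.1 CPM on MYb71, against 21.2, 23.9 and 24.3 CPM on OP50 (adjusted p = 0.507 and 0.523). In ahcy-1 and nhr-114 OP50 replicate 3 lay within or below the MYb71 libraries. metr-1, the B12-dependent methionine synthase, overlapped between the groups with 185 to 218.2 CPM on MYb71 and 184 to 234 CPM on OP50 (adjusted p = 0.870). The 7 genes of the B12-dependent propionate route had a median of -0.06 and 0 calls by edgeR (0 at an unadjusted p under 0.05, 0 by DESeq2).

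A few genes outside the rule for named genes, chosen after their values were seen, were also called only without OP50 replicate 3. In each, OP50 replicate 3 was the OP50 library nearest to MYb71. argk-1, an arginine kinase gene, had 9, 6, 4 and 1 counts in the MYb71 libraries and 303, 1864 and 21 counts in the OP50 libraries (adjusted p = 0.121, and 0.0106 without OP50 replicate 3). vmo-1 had 0, 1, 1 and 0 counts on MYb71 and 251, 86 and 10 counts on OP50 (adjusted p = 0.0847 and 0.00462). asah-2, an acid ceramidase gene, had 41.2, 38.9, 49.6 and 41.4 CPM on MYb71, against 7.87, 15.1 and 20.6 CPM on OP50 (adjusted p = 0.0847 and 0.0208). Every MYb71 library lay below every OP50 library for argk-1 and vmo-1 and above for asah-2.

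The MYb71 effect was then compared between adult stages in a model of 21 libraries, in which no library serves 2 stages. In that model 204 genes differed between MYb71 and OP50 at Ad1 (1.32% of 15487) and 9 at Ad7 (0.0581%). Of the 20 genes called at Ad3, 7 were called in the same direction at Ad1, and 2, asp-8 and C04G6.6, at Ad7. asp-8 had log2 fold changes of 2.17 ± 0.30 at Ad1 and 2.25 ± 0.31 at Ad7 (adjusted p = 0.000817 and 0.00647), and C04G6.6 had -0.96 ± 0.23 and -1.62 ± 0.24 (adjusted p = 0.0442 and 0.00786). The sign at Ad1 was that of Ad3 in 19 of the 20, with C25E10.8 as the exception (0.22 ± 0.17 at Ad1), and at Ad7 in 19 of the 20, with clc-25 as the exception (-0.11 ± 0.35). Over all genes, 64.6% had the sign of Ad3 at Ad1 and 60.7% at Ad7.

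**Figure D5:**
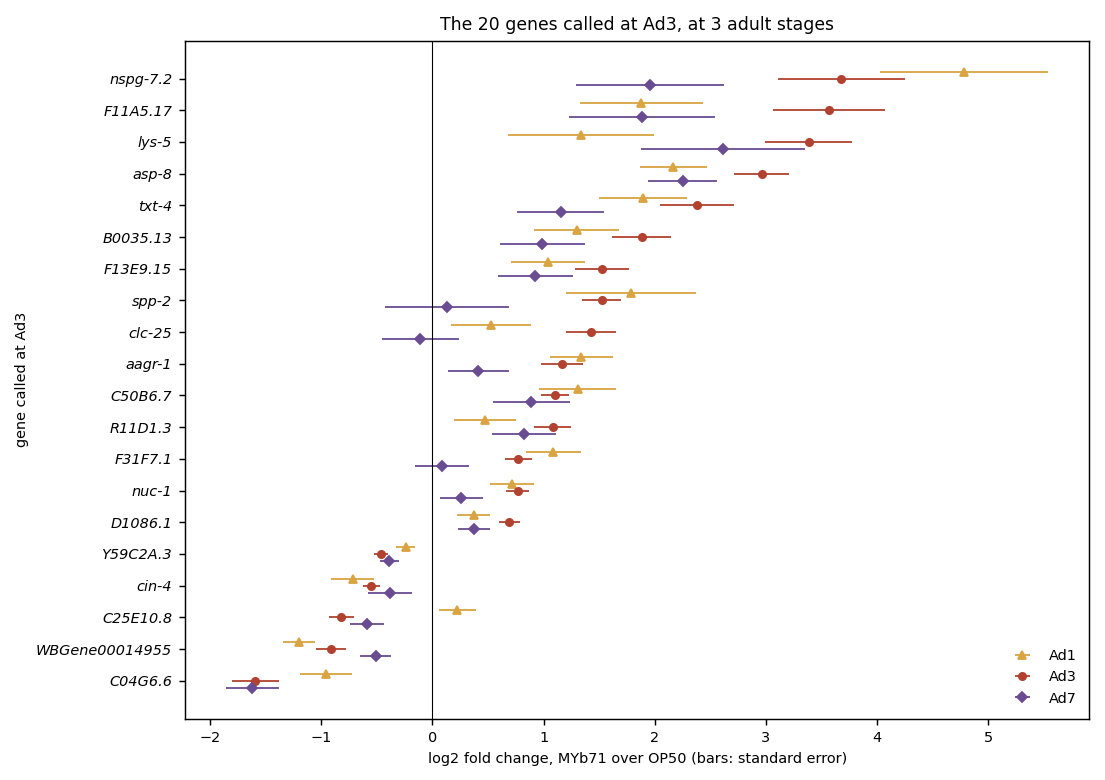
Log2 fold changes of MYb71 over OP50 (horizontal axis, bars are standard errors) of the 20 genes called at Ad3, at Ad1 (triangles), Ad3 (circles) and Ad7 (diamonds). Values at Ad1 and Ad7 come from the model of 21 adult libraries and those at Ad3 from the model of 11 libraries of that stage, and asp-8 lies at 2.17, 2.96 and 2.25.

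The difference of the effects itself passed the test in 5 genes between Ad3 and Ad1 (0.0323% of 15487). F44E7.5 averaged 223 ± 52.7 CPM on MYb71 and 31.6 ± 1.91 CPM on OP50 at Ad1, but 57.5 ± 5.10 and 46.6 ± 4.75 CPM at Ad3 (SD, n = 4 and 3; edgeR, difference of log2 effects -2.51 ± 0.19, adjusted p = 8.75e-07). R08F11.4 averaged 10.2 ± 0.895 CPM on MYb71 and 0.859 ± 0.132 CPM on OP50 at Ad1, but 0.467 ± 0.175 and 0.564 ± 0.138 CPM at Ad3 (difference -3.80 ± 0.41, adjusted p = 0.000121). F40F8.5 averaged 452 ± 163 CPM on MYb71 and 63.3 ± 24.4 CPM on OP50 at Ad1, but 117 ± 9.80 and 67.8 ± 3.45 CPM at Ad3 (difference -2.05 ± 0.32, adjusted p = 0.0156). zip-11, a bZIP transcription factor gene linked to defence against bacteria, averaged 25.1 ± 5.57 CPM on MYb71 and 8.30 ± 1.73 CPM on OP50 at Ad1, but 9.83 ± 0.912 and 8.94 ± 1.10 CPM at Ad3 (difference -1.46 ± 0.24, adjusted p = 0.0257). In these 4 genes the MYb71 level was several times that on OP50 at Ad1. At Ad3 it was near that on OP50 in F44E7.5, R08F11.4 and zip-11 and above it in F40F8.5. The number of such genes was 3 without OP50 replicate 1, without MYb71 replicate 2 or without MYb71 replicate 3.

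mtl-2, a metallothionein that binds zinc and cadmium in the intestine, differed the other way. It averaged 1.16 ± 0.586 CPM on MYb71 and 41.6 ± 20.0 CPM on OP50 at Ad1, but 14.9 ± 3.27 and 33.2 ± 14.6 CPM at Ad3 (difference 3.96 ± 0.54, adjusted p = 0.00408). At Ad3 itself it had 10.6, 14.5, 18.2 and 15.4 CPM on MYb71, against 39.9, 41.3 and 16.1 CPM on OP50, with OP50 replicate 3 among the MYb71 libraries (adjusted p = 0.766, and 0.757 without that library). Between Ad3 and Ad7 the effects differed in 0 of 15487 genes (0%) by edgeR, with 205 genes at an unadjusted p under 0.05 and 0 by DESeq2.

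A second isolate, which the series labels Ochrobactrum MYb65 while the methods name MYb237 as the second isolate, was sampled in 4 libraries at Ad3, with 17053035 to 22981256 counts each. A direct contrast of MYb71 with MYb65, which needs no OP50 library, called 2 of 14323 genes (0.014%), and both were lower on MYb71. It did not pair libraries by number. Replicate 1 was the highest library on MYb71 and on MYb65 for col-138 (93.9 and 48.2 CPM) and msp-152 (4.11 and 6.41 CPM). Whether equal numbers mark shared runs was not tested, and the few calls do not show that the isolates act alike. WBGene00014955 had 13.9, 10.3, 10.8 and 11.04 CPM on MYb71, against 43.6, 50.8, 40.8 and 38.2 CPM on MYb65 (log2 fold change -1.91 ± 0.13, adjusted p = 0.000119). WBGene00014954 had 7.70, 4.64, 4.66 and 4.50 CPM on MYb71, against 24.1, 27.9, 23.0 and 23.4 CPM on MYb65 (log2 fold change -2.19 ± 0.19, adjusted p = 0.000724). No library of one isolate reached the range of the other for either of these neighbouring pseudogenes. For asp-8 the log2 difference between the isolates was 0.17 ± 0.20 (adjusted p = 1.00), with 45.9 to 51.7 CPM on MYb71 and 34.4 to 63.1 CPM on MYb65. lys-5 had 7.38 to 13.9 CPM on MYb71 and 1.49 to 4.06 CPM on MYb65, without overlap but without a call (log2 difference 1.66 ± 0.33, adjusted p = 0.738).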

How the data were processed

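Polyadenylated RNA of whole worms was sequenced on an Illumina HiSeq from libraries that do not mark strand. The authors used Trimmomatic for trimming, STAR 2.5.3a for mapping to WormBase WS235 and HTSeq for counting, and deposited raw counts for 46748 genes, with no normalization. How multiply mapped reads were counted is not known here. Symbols and positions are those of WBcel235 in Ensembl, where 46449 identifiers were found.

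Counts were tested with edgeR 4.0.16 (R 4.3.3), using the robust quasi-likelihood F test, TMM normalization, filterByExpr (minimum count 10, minimum total 15, share 0.7) and Benjamini-Hochberg adjustment at 0.05. One model held MYb71 (4), OP50 (3) and MYb65 (4) at Ad3, and a second held MYb71 and OP50 at 3 adult stages. Log2 fold changes are MYb71 over OP50 with SE, and CPM are TMM-scaled. The script recovered known changes in simulated counts. All 15 pairs of libraries within a group differed beyond sampling noise (chi-square per gene of 16.3 or more), and each library was counted once. Alternatives covered DESeq2 1.42.0, RLE size factors, filters, other samples, a replicate block and each library left out.

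The genes named are all called genes, the 3 members of each of 42 lists with the smallest p, genes the study discusses, genes whose effect differed between stages or isolates, and some added after their values were seen (hphd-1, ech-6, vmo-1, argk-1, asah-2, asp-13, clec-3, clec-48 and clec-55). The comparison, lists and rule were chosen with earlier results of these data known. Y53G8AM.5 and F59D6.3 failed the filter. Promoter motifs were not analysed here, as no sequence was used. Replicates are labelled as separate samples, and whether each is a separate run is not known. The p-values set each difference against the spread between libraries.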

Additional observations from a re-analysis of the deposited data

Results flagged for a closer look

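In 11 of 157 named genes 1 of the 4 MYb71 libraries lay far from the other 3, and chance alone does so in about 1 in 20 groups. MYb71 replicate 3 was high for B0035.13 (138 CPM), lys-5 (13.9 CPM), nuc-1 (203 CPM) and ilys-2 (2.36 CPM). MYb71 replicate 1 was high for col-138 (93.9 CPM), WBGene00014954 (7.70 CPM) and pals-14 (2.70 CPM). MYb71 replicate 2 was high for ahcy-1 (1023 CPM) and low for acdh-2 (0.618 CPM). MYb71 replicate 4 was high for cyp-33C2 (1.64 CPM) and low for the gut esterase gene ges-1 (28.9 CPM). Groups of 3, as on OP50, were not examined in this way.

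The effect of MYb71 differed between Ad3 and Ad1 for mtl-2 (3.96 on the log2 scale, Ad3 minus Ad1), F40F8.5 (-2.05), F44E7.5 (-2.51), R08F11.4 (-3.80) and zip-11 (-1.46), each by the interaction test of edgeR.

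The 3 libraries of worms on the mixture of both isolates at Ad3 enter no comparison above. Among the 5 genes with the smallest p, the 4 that rose on MYb71 were also above all 3 OP50 libraries there, with medians of 30.1 CPM for asp-8, 101 CPM for C50B6.7, 4.37 CPM for lys-5 and 154 CPM for spp-2. These libraries are set against the same OP50 libraries as MYb71.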

How the results depend on the processing

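The count of 20 genes at Ad3 was 57 with all 14 libraries of the stage, 146 with DESeq2, 13 at a log2 fold change of at least 1 and 2 with replicate 3 of MYb71 and of MYb65 left out together. Leaving out 1 library gave 1 to 74 genes. Fitting only the 7 libraries of MYb71 and OP50 lost the calls of B0035.13, C25E10.8, D1086.1, F13E9.15, F31F7.1, R11D1.3, WBGene00014955, Y59C2A.3, cin-4 and clc-25. In the main fit the MYb65 libraries share the estimate of the spread. For Ad3 minus Ad1 the 5 genes became 25 with DESeq2, and 3 to 7 with 1 library left out. For MYb71 against MYb65 the 2 genes became 8 with DESeq2. No result changed from called to the opposite direction. The causes of these shifts were not tested. F11A5.17 had few reads in all libraries, and irg-5 and vmo-1 had few on MYb71, so the sizes of their fold changes are uncertain.

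Labels share replicate numbers but do not say whether equal numbers mark the same run. Same-numbered MYb71 and OP50 libraries did not deviate together (correlations of -0.19, -0.15 and -0.31) and were not treated as pairs. Pairs of unlike number had correlations from -0.42 to 0.33, and whether libraries share runs under unlike numbers was not tested. A replicate block built on these numbers gave 7 genes at Ad3 in place of 20 and 2 in place of 5 for Ad3 minus Ad1. No MYb71 library correlated best with the OP50 library of its own number.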
